A study of Sus scrofa with 10 samples.

Results

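The enzymes that carry glucose carbon to pyruvate and lactate, and onward through the citric acid cycle, were followed in the hypothalamus, the brain region that senses nutrients and controls appetite and growth. Members were chosen by gene name alone, from hexokinase to malate dehydrogenase with the kinases that regulate pyruvate dehydrogenase and the enzymes that regulate phosphofructokinase, and had to carry a usable estimate in both groups. The rule took 59 of 25009 gene rows, under 53 gene names. RNA came from 10 Iberian x Landrace backcross pigs, 5 of high growth and fatness (High pigs) and 5 of low growth and fatness (Low pigs). The comparison asked which hypothalamic transcripts differ between pigs that diverge in these traits. Each gene row had 1 FPKM value per group (fragments scaled for transcript length and library size) with a lower and an upper bound set by the authors, whose confidence level is not given in the sources used here. Single animals were not analysed here, depth is unknown, and no difference below has a replicate check or a p-value. In bulk tissue, fewer cells of a type and less RNA per cell cannot be told apart.

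Glycolysis splits glucose into pyruvate in the cytosol. Pyruvate is then reduced to lactate by lactate dehydrogenase, or enters mitochondria, where the pyruvate dehydrogenase complex feeds its carbon to the citric acid cycle as acetyl-CoA. The brain relies on glucose as its main fuel, astrocytes are known to release lactate that neurons can oxidise, and several steps are carried by isozymes with different tissue preferences.

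Most of these enzyme transcripts had a slightly lower value in High pigs, and the differences were small against the deposited bounds. Of 53 member rows that averaged 1 FPKM or more across the groups (50 gene names), 43 were lower and 10 higher in High pigs. The median difference, as log2(FPKM + 1) of High pigs minus that of Low pigs, was -0.18. Over all 15281 rows that passed the same filter 67.7% were lower in High pigs and the median was -0.10. Only 1 member row, of fumarate hydratase, was at least 1.5-fold lower in High pigs on that scale, and 0 were 1.5-fold higher. Of all rows, 4.49% were 1.5-fold lower and 1.85% 1.5-fold higher. The deposited intervals of the groups overlapped in all 53 member rows, and failed to overlap in 0.458% of all rows. In 46 of the 53 rows the value in High pigs was within 25% of that in Low pigs, and in 18 within 10%.

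That lean to lower values depended on how the groups were scaled. After median-of-ratios scaling, which brings the median of all rows from -0.10 to 0.00, 36 member rows were lower and 17 higher in High pigs, with a median of -0.07. After quantile normalization, which gives both groups the same distribution of values, 26 were lower and 27 higher, and the median was 0.02. Highly expressed rows were also lower in High pigs more often than weakly expressed ones. Of all rows, 60.5% were lower from 1 to under 10 FPKM, 77.2% from 10 to under 100 FPKM and 87.7% at 100 FPKM or more. For members these shares were 50%, 87.1% and 91.7%. Among rows at 100 FPKM or more, the median was -0.17 for 12 members and -0.29 for all 652 rows. From 10 to under 100 FPKM it was -0.22 for 31 members and -0.15 for all 5550 rows. From 1 to under 10 FPKM it was -0.01 for 10 members and -0.06 for all 9079 rows. The members were thus below all rows of the same level in the middle range, and above them in both other ranges.

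**Figure D1:**
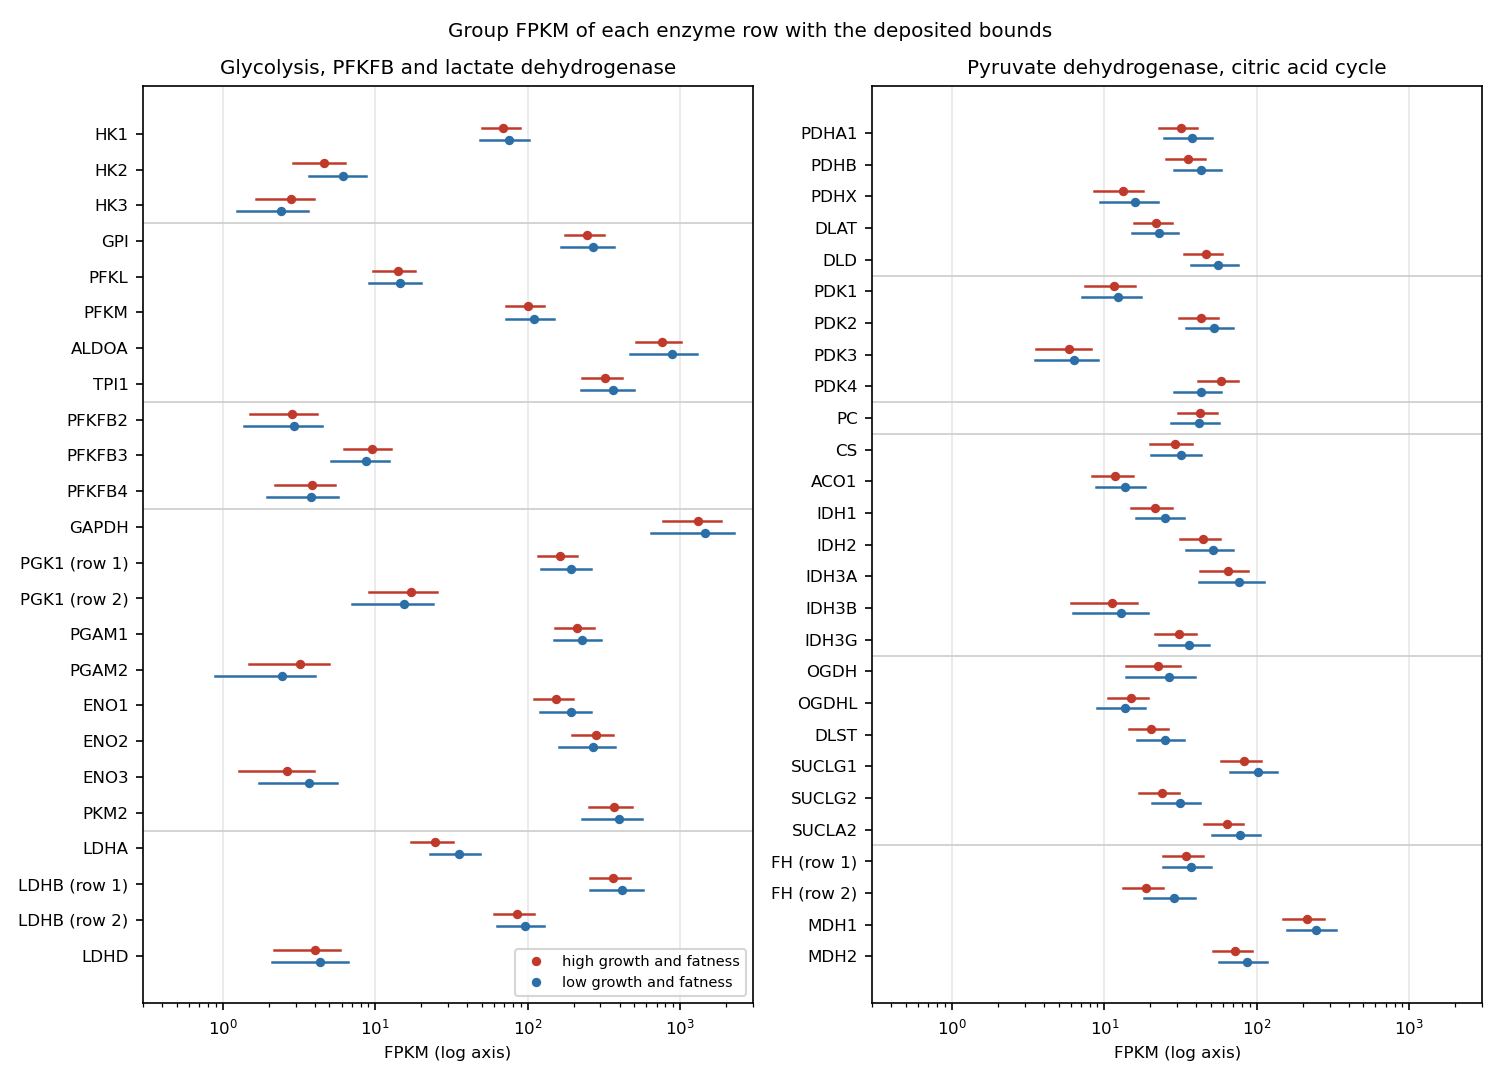
FPKM on a log axis for 51 enzyme rows that passed the filter, with High pigs (red) above Low pigs (blue), points for the group values and lines for the deposited bounds. The intervals of the groups overlap in each row drawn, and GAPDH is the highest at 1310 FPKM in High pigs and 1456 FPKM in Low pigs.

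Glucose is trapped in the cell by hexokinases. HK1, the hexokinase that predominates in brain, was at 69.2 FPKM (bounds 49.8 to 88.6) in High pigs and 75.8 FPKM (49.0 to 103) in Low pigs. HK2, the insulin-responsive form of muscle and fat, was at 4.61 FPKM (2.88 to 6.33) in High pigs and 6.15 FPKM (3.66 to 8.65) in Low pigs, a log2 difference of -0.35. HK3, a form of myeloid blood cells, leaned the other way, at 2.80 FPKM (1.64 to 3.96) in High pigs against 2.42 FPKM (1.24 to 3.60) in Low pigs. HK1 made up 90.3% of hexokinase FPKM in High pigs and 89.8% in Low pigs, so the family's makeup was nearly alike in both groups.

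The next enzymes rearrange and split the sugar phosphate. GPI, which turns glucose phosphate into fructose phosphate, was at 245 FPKM (174 to 316) in High pigs and 266 FPKM (165 to 367) in Low pigs. PFKM, the muscle-type subunit of phosphofructokinase, the main control point of glycolysis, was at 99.7 FPKM (72.0 to 127) in High pigs and 110 FPKM (71.7 to 148) in Low pigs. The liver-type subunit PFKL was at 13.99 FPKM in High pigs and 14.5 FPKM in Low pigs. For each of these 3 enzymes the groups were within 10% of each other. TPI1, which interconverts the triose phosphates, was at 319 FPKM (225 to 413) in High pigs and 362 FPKM (224 to 499) in Low pigs.

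The platelet-type subunit, PFKP, has no row under that name, but the reference table of identifiers gives that symbol to an unnamed row outside the rule. That row was at 54.9 FPKM in High pigs and 56.3 FPKM in Low pigs. PFKM held 87.7% of the named phosphofructokinase FPKM in High pigs and 88.4% in Low pigs, and 59.1% in High pigs and 60.8% in Low pigs when the PFKP row was counted.

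The most abundant enzyme of this stretch carries a doubtful name. The row that the file names ALDOA (ENSSSCG00000017759, chromosome 12, 46807767 to 46810178, build Sscrofa10.2) was at 764 FPKM (516 to 1012) in High pigs and 880 FPKM (472 to 1287) in Low pigs, a log2 difference of -0.20. The reference table gives its identifier the symbol ALDOC, and its neighbours in the file, PIGS and SPAG5, are the genes that flank ALDOC in the RefSeq gene list of the later assembly Sscrofa11.1, where ALDOA lies on chromosome 3. ALDOC is the aldolase of brain, abundant in astrocytes, whereas ALDOA is the muscle and general form. The level may thus be that of aldolase C, and aldolase A was not analysed here under its own name.

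Phosphofructokinase is stimulated by a fructose bisphosphate distinct from its own product, and the PFKFB enzymes set the level of that regulator. PFKFB3, the form with the strongest kinase activity, was at 9.47 FPKM (6.18 to 12.8) in High pigs and 8.73 FPKM (5.14 to 12.3) in Low pigs. PFKFB4 was at 3.83 FPKM in High pigs and 3.80 FPKM in Low pigs, and PFKFB2, the heart form, at 2.83 FPKM in High pigs and 2.91 FPKM in Low pigs. None of these 3 rows differed by more than 0.11 on the log2 scale. The PFKFB1 row was near 0 in both groups (0.00628 FPKM in High pigs and 0.0101 FPKM in Low pigs). A row close by on chromosome X that the file names TROP, and to which the reference table gives the symbol PFKFB1, was at 11.4 FPKM in High pigs and 9.42 FPKM in Low pigs, so the share of the liver form in this family is uncertain.

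The lower part of glycolysis, which yields ATP, held the highest row of the set, GAPDH. GAPDH, which oxidises glyceraldehyde phosphate and is often used as a reference gene, was at 1310 FPKM (768 to 1852) in High pigs and 1456 FPKM (647 to 2265) in Low pigs, rank 20 of the filtered rows by mean level. Its difference, -0.15, lay within 0.06 of the median of all rows. PGK1, which makes ATP from bisphosphoglycerate, was at 163 FPKM (117 to 210) in High pigs and 192 FPKM (123 to 261) in Low pigs. A second row of that name on chromosome X, only 520 bases long and not paired with a symbol in the reference table, was at 17.2 FPKM in High pigs and 15.5 FPKM in Low pigs, and may take reads of the full gene.

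PGAM1, the brain-type phosphoglycerate mutase, was at 211 FPKM (151 to 270) in High pigs and 227 FPKM (149 to 305) in Low pigs. PGAM2, the muscle form, was at 3.22 FPKM (1.49 to 4.95) in High pigs and 2.45 FPKM (0.891 to 4.02) in Low pigs, a log2 difference of 0.29. The ratio of PGAM2 to PGAM1 was 0.0153 in High pigs and 0.0108 in Low pigs, a larger relative difference than that between the enolases, at a far lower level. The pyruvate kinase row, PKM2, was at 366 FPKM (252 to 480) in High pigs and 396 FPKM (227 to 566) in Low pigs. Both rows of PKLR, the liver and red cell pyruvate kinase, were below 0.1 FPKM.

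Enolase had the largest difference in share, in percentage points, among the isozyme families of glycolysis. ENO2, the neuronal enolase, was at 279 FPKM (196 to 362) in High pigs and 267 FPKM (160 to 373) in Low pigs. ENO1, the general form that glia use, was at 154 FPKM (111 to 197) in High pigs and 191 FPKM (120 to 262) in Low pigs. ENO2 stood at 1.81 times ENO1 in High pigs and 1.40 times in Low pigs. Its share of enolase FPKM was 64.1% in High pigs and 57.8% in Low pigs. ENO3, the muscle enolase, was at 2.62 FPKM (1.28 to 3.96) in High pigs and 3.66 FPKM (1.73 to 5.59) in Low pigs.

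Of the forms described above as typical of muscle, PGAM2 was thus higher in High pigs, while ENO3, HK2 and PFKM were lower. Of 7 skeletal muscle markers 3 rows passed the filter, and their FPKM summed to 7.76 in High pigs and 15.3 in Low pigs. ACTA1 and TNNT1 were lower in High pigs, while MYH7 was at 2.48 FPKM in High pigs and 2.31 FPKM in Low pigs. Whether muscle RNA contributed to any of these isozymes was not tested.

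Across the 18 glycolysis rows from hexokinase to pyruvate kinase, 13 were lower and 5 higher in High pigs, with a median of -0.12. That direction turned with the scaling. After median-of-ratios scaling 10 were lower and 8 higher, with a median of -0.0074, and after quantile normalization 3 were lower (HK2, ENO1 and ENO3) and 15 higher, with a median of 0.12.

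**Figure D2:**
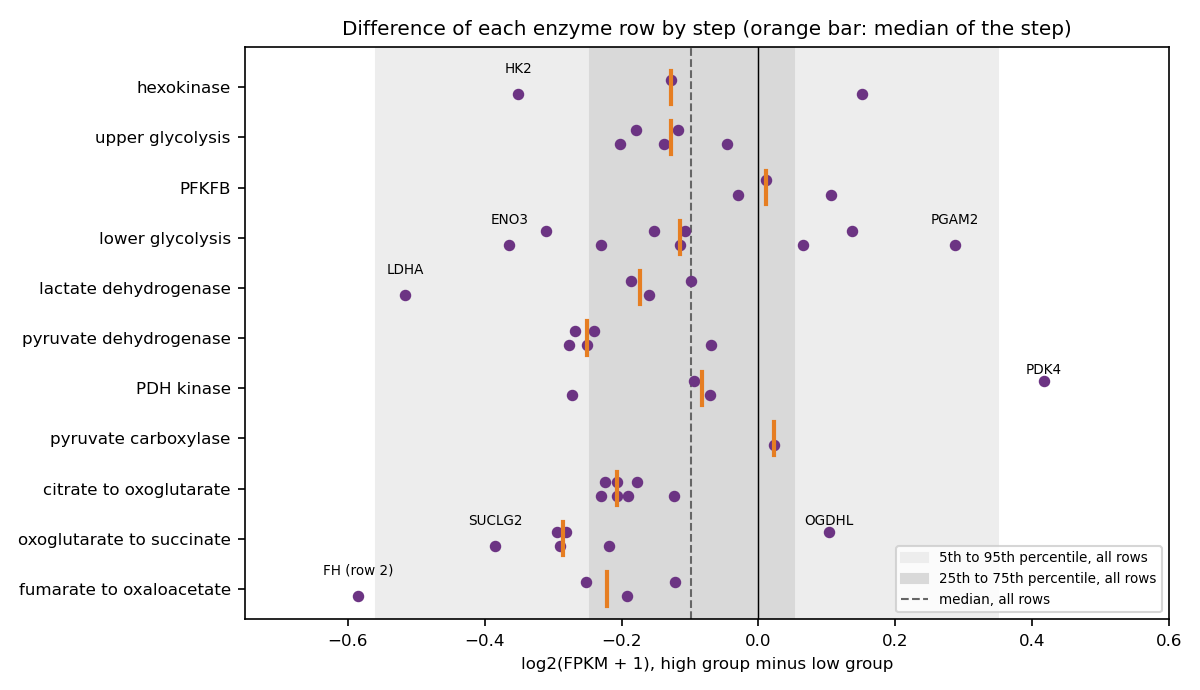
Difference of 51 enzyme rows, log2(FPKM + 1) of High pigs minus that of Low pigs, by pathway step, with the median over all filtered rows of the step as an orange bar; grey bands and the dashed line give percentiles and median of all 15281 rows. Row 2 of FH lies left of the 5th percentile of all rows (-0.56), PDK4 right of the 95th (0.35), and the citric acid cycle rows gather near -0.2.

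Lactate dehydrogenase interconverts pyruvate and lactate. All 4 of its filtered rows were lower in High pigs as deposited and after median-of-ratios scaling, but 2 of 4 were higher after quantile normalization. LDHA, whose subunit favours lactate formation, was at 24.6 FPKM (17.1 to 32.1) in High pigs and 35.6 FPKM (22.9 to 48.4) in Low pigs. Its difference of -0.52 is the second lowest of all members, and the value in Low pigs lay above the upper bound of High pigs. Of all rows, 11.2% had the value of either group outside the bounds of the other, and of the members 4 of 53 did (FH, LDHA, SUCLG2 and PDK4). LDHB, whose subunit favours use of lactate and is the main form in neurons and heart, was at 362 FPKM (256 to 468) in High pigs and 412 FPKM (258 to 567) in Low pigs. LDHA stood at 0.0679 of that LDHB row in High pigs and 0.0864 in Low pigs.

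LDHB has more than 1 row. A copy on chromosome 2 (12622307 to 12623588), 1282 bases long, was at 85.2 FPKM in High pigs and 95.4 FPKM in Low pigs, and RefSeq lists a pseudogene beside an LDHB entry on that chromosome, so reads of LDHB may be split between these rows. Another LDHB row, on chromosome 4, was listed at 0 in both groups. The sum of the LDHB rows made up 94.0% of lactate dehydrogenase FPKM in High pigs and 92.7% in Low pigs. LDHD, which acts on D-lactate, was at 3.999 FPKM in High pigs and 4.35 FPKM in Low pigs, and LDHC, the testis form, was below 0.1 FPKM in both.

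The pyruvate dehydrogenase complex joins glycolysis to the citric acid cycle. All 5 of its rows were lower in High pigs, with a median of -0.25, and 4 of 5 were lower under either scaling. The catalytic subunits PDHA1 and PDHB had log2 differences of -0.24 and -0.28. PDHA1 was at 31.6 FPKM (22.7 to 40.6) in High pigs and 37.6 FPKM (24.5 to 50.6) in Low pigs, and PDHB at 35.5 FPKM (25.2 to 45.8) in High pigs and 43.2 FPKM (28.5 to 57.9) in Low pigs. The acetyltransferase DLAT, which forms the core, was nearer to equal, at 21.7 FPKM (15.5 to 27.8) in High pigs and 22.8 FPKM (15.1 to 30.4) in Low pigs. PDHX, which anchors DLD to that core, was at 13.2 FPKM in High pigs and 15.9 FPKM in Low pigs. DLD, the dehydrogenase shared with the oxoglutarate dehydrogenase complex, was at 46.3 FPKM (33.2 to 59.3) in High pigs and 55.9 FPKM (36.9 to 74.9) in Low pigs.

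Pyruvate dehydrogenase is switched off by its kinases, and these did not share 1 direction. PDK4, a kinase known from rodents to be induced by fasting and glucocorticoids, was at 58.2 FPKM (41.3 to 75.1) in High pigs and 43.3 FPKM (28.5 to 58.2) in Low pigs, a log2 difference of 0.42. The value in High pigs lay at the very edge of the bounds of Low pigs, beyond it only in the fourth digit. PDK2, the form found in most tissues, was at 43.1 FPKM (30.9 to 55.3) in High pigs and 52.2 FPKM (34.4 to 70.0) in Low pigs. PDK1 was at 11.6 FPKM in High pigs and 12.2 FPKM in Low pigs, and PDK3 at 5.86 FPKM in High pigs and 6.32 FPKM in Low pigs.

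The order of the kinases therefore differed between the groups. PDK4 stood at 1.35 times PDK2 in High pigs and 0.83 times in Low pigs. PDK4 made up 49.0% of pyruvate dehydrogenase kinase FPKM in High pigs and 38.0% in Low pigs, the largest shift of any isozyme share here, and PDK2 36.3% in High pigs and 45.8% in Low pigs. PDK4 was also higher in High pigs after quantile normalization, and then past 1.5-fold (0.59). The other settings could not have turned its direction. A pseudocount cannot change a sign, and median-of-ratios scaling raised High pigs against Low pigs. The intervals of both kinases overlapped between groups, and the difference in order has no replicate check.

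**Figure D3:**
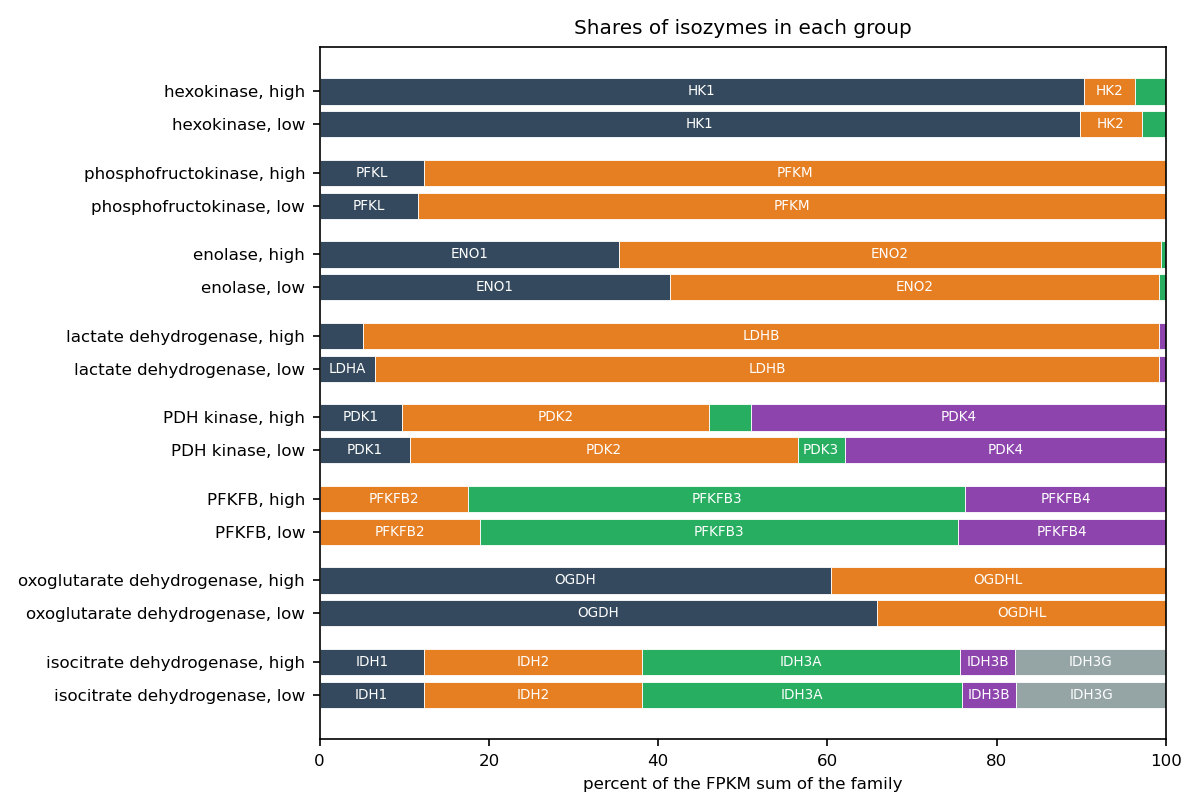
Share of each isozyme in the FPKM sum of its family, in percent, with High pigs above Low pigs for each family; rows of the same name are summed, and PFKP, which has no row under that name, is not included. PDK4 takes 49.0% of the kinases in High pigs and 38.0% in Low pigs, ENO2 64.1% of enolase in High pigs and 57.8% in Low pigs, while the isocitrate dehydrogenases keep almost the same shares.

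Pyruvate carboxylase, PC, which replenishes oxaloacetate and in brain is an astrocyte enzyme, was at 42.6 FPKM (30.4 to 54.8) in High pigs and 41.9 FPKM (27.3 to 56.5) in Low pigs.

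In the citric acid cycle 17 of 18 rows were lower in High pigs, with a median of -0.22, and OGDHL was the exception. Of all rows from 10 to under 100 FPKM, the range of each cycle row but MDH1, 77.2% were lower. After median-of-ratios scaling 17 of 18 cycle rows were again lower, with a median of -0.11. After quantile normalization 14 of 18 were lower, with a median of -0.065, and CS, MDH1 and row 1 of FH were then higher as well. Whether glycolysis and the cycle differ in this was not tested. All 8 rows from citrate synthase to isocitrate dehydrogenase were lower in High pigs as deposited, with a median of -0.21. CS, which condenses acetyl-CoA with oxaloacetate, was at 28.9 FPKM (20.0 to 37.8) in High pigs and 31.6 FPKM (20.3 to 42.9) in Low pigs. ACO1, the cytosolic aconitase, which also binds iron-responsive elements, was at 11.8 FPKM in High pigs and 13.6 FPKM in Low pigs.

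The subunits of the NAD-dependent isocitrate dehydrogenase stood in nearly the same proportions in both groups. IDH3A, the catalytic subunit, was at 64.9 FPKM (42.6 to 87.1) in High pigs and 76.3 FPKM (41.9 to 111) in Low pigs. IDH3G stood at 0.474 of IDH3A in High pigs and 0.467 in Low pigs, and IDH3B at 0.173 in High pigs and 0.168 in Low pigs. The NADP-dependent forms were IDH2 in mitochondria, at 44.3 FPKM in High pigs and 51.9 FPKM in Low pigs, and IDH1 in the cytosol, at 21.4 FPKM in High pigs and 24.8 FPKM in Low pigs. All 5 isocitrate dehydrogenase rows lay between -0.23 and -0.18 on the log2 scale.

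Oxoglutarate is oxidised to succinyl-CoA by a complex of OGDH, DLST and DLD. OGDH was at 22.6 FPKM (13.9 to 31.3) in High pigs and 26.5 FPKM (13.8 to 39.1) in Low pigs, and its succinyltransferase partner DLST at 20.2 FPKM (14.4 to 26.0) in High pigs and 24.8 FPKM (16.4 to 33.2) in Low pigs. OGDHL, an alternative first subunit enriched in brain, was at 14.8 FPKM (10.5 to 19.2) in High pigs and 13.7 FPKM (8.92 to 18.5) in Low pigs. OGDHL made up 39.6% of the pair's FPKM in High pigs and 34.2% in Low pigs.

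Succinyl-CoA ligase then makes ATP or GTP. The shared subunit SUCLG1 was at 82.4 FPKM (57.8 to 107) in High pigs and 101 FPKM (66.2 to 136) in Low pigs. The ATP-forming subunit SUCLA2 was at 63.3 FPKM (45.0 to 81.7) in High pigs and 77.7 FPKM (51.0 to 104) in Low pigs. The GTP-forming subunit SUCLG2 was at 23.9 FPKM (16.9 to 30.8) in High pigs and 31.5 FPKM (20.6 to 42.3) in Low pigs, a log2 difference of -0.38, with the value of Low pigs just above the upper bound of High pigs. All 3 were lower in High pigs, and SUCLG2 the most.

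Fumarate hydratase, FH, which turns fumarate into malate, gave the 1 difference past 1.5-fold, and it rests on an uncertain row. That row (ENSSSCG00000010893, chromosome 10, 24337266 to 24406910) was at 18.8 FPKM (13.3 to 24.3) in High pigs and 28.7 FPKM (18.1 to 39.3) in Low pigs, a log2 difference of -0.586 against a threshold of 0.585. The reference table has no symbol for it. The other FH row (ENSSSCG00000028178, chromosome 10, 14852719 to 14879014), which the table names FH and which has KMO and RGS7 as neighbours as FH does in RefSeq, was at 34.1 FPKM (24.2 to 44.1) in High pigs and 37.2 FPKM (24.4 to 50.04) in Low pigs. Summed over both rows, FH was at 52.9 FPKM in High pigs and 65.9 FPKM in Low pigs, a log2 difference of -0.31. The uncertain row, which is row 2 of FH in the figures, was at -0.47 after median-of-ratios scaling and at -0.44 after quantile normalization, no longer past 1.5-fold. The row that the reference table names FH is row 1.

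Malate dehydrogenase closes the cycle. MDH2, the mitochondrial form, was at 72.2 FPKM (51.5 to 92.8) in High pigs and 86.1 FPKM (56.3 to 116) in Low pigs. MDH1, the cytosolic form that serves the malate-aspartate shuttle, was at 213 FPKM (148 to 277) in High pigs and 243 FPKM (158 to 329) in Low pigs, on an unplaced scaffold. An unnamed row on chromosome 3, which the reference table calls MDH1 and which the rule did not take, was at 139 FPKM in High pigs and 166 FPKM in Low pigs. The share of MDH1 in the malate dehydrogenases, 74.7% in High pigs and 73.8% in Low pigs, was 83.0% in High pigs and 82.6% in Low pigs with it.

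**Figure D4:**
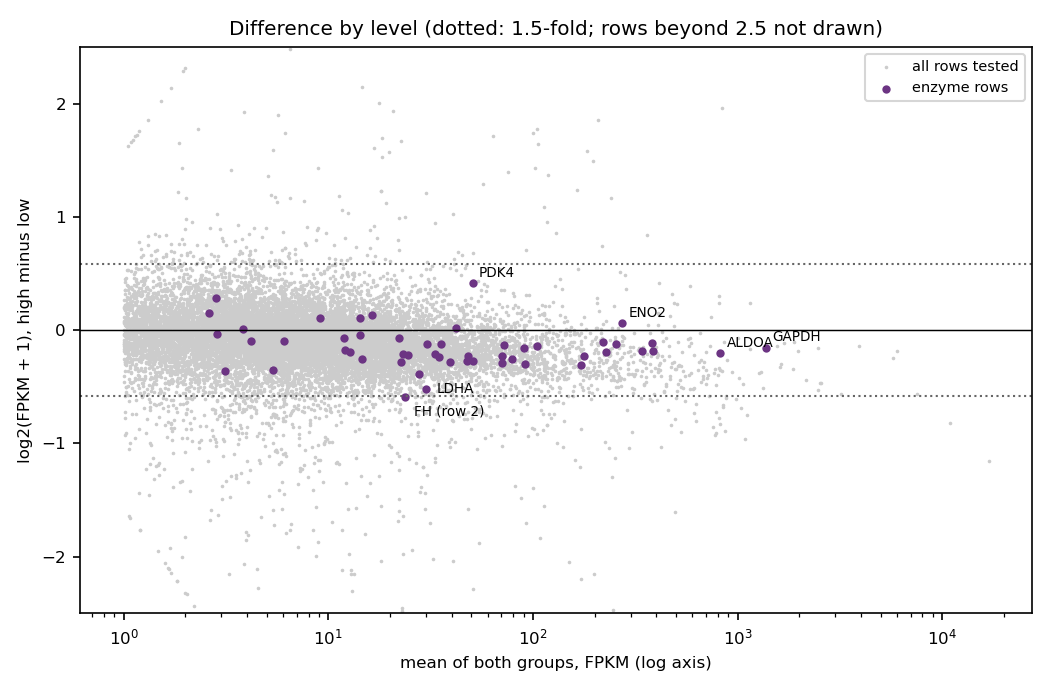
Difference, log2(FPKM + 1) of High pigs minus that of Low pigs, against mean FPKM on a log axis, for all rows tested (grey) and 51 enzyme rows (purple), with dotted lines at 1.5-fold; rows beyond 2.5 on the y axis are not drawn. The cloud of all rows bends below 0 at high levels, the enzyme rows lie within it, and row 2 of FH touches the lower line.

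Neighbouring pathways had medians in the same range as the enzymes. Succinate dehydrogenase, the cycle enzyme that is also part of the respiratory chain, had 6 of 6 rows lower in High pigs, assembly factors included, with a median of -0.20. SDHD was at 87.3 FPKM in High pigs and 114 FPKM in Low pigs, and SDHA at 57.0 FPKM in High pigs and 65.0 FPKM in Low pigs. In the pentose phosphate pathway, which makes NADPH, 6 of 6 rows were lower in High pigs (median -0.24), led in level by TKT at 47.6 FPKM in High pigs and 52.9 FPKM in Low pigs. The malate-aspartate and glycerol phosphate shuttles also had 6 of 6 rows lower (median -0.21), with GOT1 at 96.5 FPKM in High pigs and 115 FPKM in Low pigs. Of these 18 rows, 0 were past 1.5-fold.

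Glycogen metabolism was more mixed. Of 14 rows 10 were lower and 4 higher in High pigs (median -0.12), and PYGB, the brain glycogen phosphorylase, was at 63.4 FPKM in High pigs and 63.1 FPKM in Low pigs. Of the transporters listed, 2 passed the filter, and the neuronal glucose transporter SLC2A3 was at 21.1 FPKM in High pigs and 28.8 FPKM in Low pigs, while SLC2A8 was at 2.58 FPKM in High pigs and 2.48 FPKM in Low pigs. For the phosphatases that reactivate pyruvate dehydrogenase the median over 5 rows was -0.03, and PDP1 was at 14.9 FPKM in High pigs and 13.5 FPKM in Low pigs.

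Gluconeogenesis had 3 of 3 rows lower in High pigs (median -0.14), with G6PC3 at 16.2 FPKM in High pigs and 17.3 FPKM in Low pigs. Ketone use had 3 of 4 lower (median -0.13), with ACAT1 at 24.8 FPKM in High pigs and 26.8 FPKM in Low pigs. Of 7 rows that link glutamate and malate to the cycle 5 were lower (median -0.05), and GLUL, the glutamine synthetase of astrocytes, was at 414 FPKM in High pigs and 600 FPKM in Low pigs.

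Genes of the hypoxia response held the only members of these pathway lists past 1.5-fold. These were 2 of 13 rows, both lower in High pigs, as were 4.49% of all rows. ADM, a vasodilator peptide, was at 2.10 FPKM in High pigs and 5.88 FPKM in Low pigs. EGLN3, a prolyl hydroxylase of the hypoxia factor, was at 2.75 FPKM in High pigs and 6.19 FPKM in Low pigs. The list as a whole had 9 rows lower and 4 higher (median -0.20). The 4 higher rows were HIF1A, ARNT, VEGFA and CA9. HIF1A, a subunit of the hypoxia factor, was at 39.8 FPKM in High pigs and 38.5 FPKM in Low pigs. NDRG1 was at 57.9 FPKM in High pigs and 86.0 FPKM in Low pigs, and BNIP3L at 47.1 FPKM in High pigs and 56.3 FPKM in Low pigs. Intervals did not overlap in 0 rows of any of these pathway lists. The medians of the glutamate and malate list and of the phosphatases turned positive under both scalings, and those of glycogen and ketone use after quantile normalization.

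Markers of several cell types differed between the groups by more than the enzymes did. Oligodendrocyte markers were lower in 8 of 8 rows (median -0.74), and their FPKM summed to 2860 in High pigs and 4444 in Low pigs, led by MBP at 2017 FPKM in High pigs and 2904 FPKM in Low pigs. Of these rows 7 were past 1.5-fold, among them CLDN11 at 153 FPKM in High pigs and 317 FPKM in Low pigs. Over all rows, 4.49% were at least 1.5-fold lower in High pigs. Markers of mural cells, fibroblasts and meninges were lower in 10 of 10 rows (median -1.34), with sums of 75.1 in High pigs and 234 in Low pigs. All 10 were past 1.5-fold, led by COL3A1 at 4.20 FPKM in High pigs and 21.5 FPKM in Low pigs, and in 7 of them the intervals did not overlap, as in 0.458% of all rows. Blood markers were lower in 4 of 4 rows (median -1.15), with sums of 160 in High pigs and 392 in Low pigs, and intervals did not overlap in 2 of them. Also lower were microglial markers in 9 of 9 (median -0.48), with sums of 311 in High pigs and 440 in Low pigs, and anterior pituitary markers in 5 of 5 (median -1.03), with sums of 385 in High pigs and 748 in Low pigs.

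Neuron markers were lower in 3 of 7 rows (median 0.045), with sums of 1274 in High pigs and 1288 in Low pigs, and in 0 of 7 after quantile normalization. Astrocyte markers were lower in 5 of 6 rows (median -0.19), with sums of 2345 in High pigs and 2856 in Low pigs, and GFAP has no usable estimate. Under either scaling 3 of 6 astrocyte rows were lower, with medians of -0.07 after median-of-ratios scaling and -0.01 after quantile normalization. Endothelial markers were lower in 5 of 5 rows (median -0.25) and choroid plexus markers in 5 of 6 (median -0.46), and the 2 ependymal rows differed in direction. Hypothalamic markers were higher in 6 of 8 rows (median 0.54), and 1 of the other 2, POMC, is also among the 5 pituitary rows. Of the 8 hypothalamic rows, 4 were at least 1.5-fold higher in High pigs (CARTPT, OXT, PMCH and HCRT), as were 1.85% of all rows. Among the hypothalamic markers AVP and PMCH were at 472 and 167 FPKM in High pigs and at 354 and 91.8 FPKM in Low pigs. SIM1 was below the filter, at 0.420 FPKM in High pigs and 0.507 FPKM in Low pigs. Of the isozymes named above as neuronal, typical of brain or enriched there, ENO2 and OGDHL had log2 differences of 0.07 and 0.10, and LDHB, HK1 and PGAM1 of -0.19, -0.13 and -0.11. As deposited they thus had no common direction, and the general ENO1 was at -0.31. After median-of-ratios scaling LDHB (-0.07) and HK1 (-0.01) were still lower in High pigs. After quantile normalization ENO2, OGDHL, LDHB, HK1 and PGAM1 were all higher in High pigs, from 0.07 to 0.35, and ENO1 was at -0.09. This was not particular to brain forms. Of the 18 glycolysis rows 15 were then higher, among them the muscle form PGAM2 (0.33) and HK3 of myeloid cells (0.19). HK2, ENO1 and ENO3 were lower. The row named ALDOA, which may be aldolase C, was at -0.20 as deposited and at 0.22 after quantile normalization. The part of these cell types in the enzyme differences was not tested.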

How the data were processed

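Per the labels' protocols, hypothalamic RNA of 10 pigs (5 per group) was extracted with a RiboPure kit and made into paired-end TruSeq libraries for an Illumina HiSeq, with several libraries sharing each lane. The submitters' processing notes name TopHat2 2.0.5, Bowtie2, Cufflinks 2.0.2 and build Sscrofa10.2. The authors deposited FPKM, 1 value per gene row and group with bounds and a status, per the file headers. Rows without a usable status in both groups (58) were left out. The filter was a mean of at least 1 FPKM, and differences are log2(FPKM + 1), which understates low genes. Of 59 member rows 53 passed, and 6 fell below it, among them PFKFB1, PKLR, LDHB and LDHC rows. Some members enter the counts and medians but are not reported here by name or drawn. A row was called at 1.5-fold or where intervals did not overlap. With 1 value per group no test was run, and the members, lists and rules were chosen with earlier results of these data known. Named were, for each step, members past a call, the highest in mean and the 5 largest differences each way. Of other pathway lists, members past a call, leading levels and the hypoxia rows higher in High pigs were named. Of cell type markers, where many were past a call, only counts, sums and a few examples are given. Other member rows were added to complete each step, with their values already seen. Both the looser call by values outside the other group's bounds and the scalings of single lists were added after seeing the data. Identifiers of 47 member rows were in the reference table, 45 with the same symbol and 2 with another (PKM2 as PKM, ALDOA as ALDOC). Locus starts, which reach 0 in 8 rows, were shifted to count from 1, and a locus may span several overlapping genes (10 member rows share theirs, GAPDH, OGDH and IDH3B among them, so reads may be split there). The calls were tested on simulated data. Python 3.11.15, pandas 2.3.3 and numpy 2.4.6 were used. Sequences of the enzymes were not used here.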

Additional observations from a re-analysis of the deposited data

How the results depend on the processing

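The median difference of the members, -0.18, became -0.070 after median-of-ratios scaling and turned to 0.016 after quantile normalization; the cause was not tested. Over glycolysis rows alone the median of -0.12 became -0.0074 and 0.12 under these scalings, and over citric acid cycle rows alone -0.22 became -0.11 and -0.065, both added after seeing the data. With other pseudocounts, filters and 1 row per gene name it moved by less than 0.05. Rows of the opposite sign numbered 7 of 53 after median-of-ratios scaling, 17 of 53 after quantile normalization and 0 with pseudocounts of 0.1 or 0.5. A pseudocount cannot change a sign. The 1 row past 1.5-fold became 2 with a pseudocount of 0.1 and 0 after median-of-ratios scaling, with 1 row per gene name on placed chromosomes or at 2-fold. After quantile normalization it was again 1, with PDK4 (0.59) in place of FH. Members with intervals that did not overlap stayed at 0 in each setting. With the reference table's names, a choice made after seeing the data, shares in High pigs and in Low pigs became 83.0% and 82.6% for MDH1, 17.02% and 17.37% for MDH2, 59.1% and 60.8% for PFKM, 41.5% and 37.9% for PFKFB1, 10.3% and 11.7% for PFKFB2, 34.3% and 35.1% for PFKFB3, and 13.9% and 15.3% for PFKFB4, because further rows entered these families. No paired analysis was possible because each gene row has 1 value for all animals of a group, and animals could not be left out in turn for the same reason. Depth is unknown, so its limit could not be measured.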
